A study of Mus musculus with 9 samples.

Results

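The Fc gamma receptors are the proteins through which macrophages bind antibody of the IgG class, and 5 genes of this system were examined: the receptor genes Fcgr1, Fcgr2b, Fcgr3 and Fcgr4, and Fcer1g, which encodes the signalling chain that the activating receptors share. They were taken by gene name from the array's annotation, which gave 1 probe for each gene, so that 5 of 55681 probes that were not controls, and 5 of 18382 genes tested, are described here. The RNA came from macrophages of male mice that were sorted by flow cytometry as CD45+ F4/80+ cells. In group Ctrl, peritoneal macrophages were kept on their own in regular medium for 24 h. In group T, they were kept for 24 h with CT-26 cells, a mouse colorectal carcinoma line, in the lower chamber of a Transwell, a well divided by a porous membrane. Group M holds macrophages that had migrated, taken from the upper chamber of such a co-culture, for a time that the labels do not state. Genotype, strain and age are not stated in the labels, and each group had 3 arrays. The cell type label calls T migratory and M peritoneal, against the titles and the protocol, and the groups follow the titles.

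In mice, Fcgr1 encodes the high-affinity receptor CD64, and Fcgr3 and Fcgr4 encode activating receptors of lower affinity. All of them need the Fcer1g chain, whose cytoplasmic ITAM motif recruits the kinase Syk and starts phagocytosis and cytokine release. Fcgr2b encodes the only inhibitory receptor of the family, which carries an ITIM motif and recruits the lipid phosphatase SHIP1, so the response of a macrophage to IgG depends on the balance of the activating receptors against Fcgr2b.

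All 5 probes were well above background on 9 of 9 arrays and no spot was saturated. The Ctrl and M arrays lay on 1 slide and the T arrays on another, so T and its slide cannot be told apart, and the difference between M and Ctrl lies within 1 slide. Replicate arrays correlated at 0.969 to 0.991 in Ctrl, 0.993 to 0.996 in T and 0.988 to 0.992 in M. This was across the tested genes, each by its brightest probe, and Ctrl3 was the Ctrl array farthest from the other 2. All 7 macrophage markers, with Ptprc (CD45) and Adgre1 (F4/80) among them, were above background on every array. Both sort markers were themselves higher in M than in Ctrl, Adgre1 by 2.86 ± 0.22 (log2, SE, n = 3 per group, limma adjusted p = 1.36e-05) and Ptprc by 0.80 ± 0.20 (adjusted p = 0.0222), while in T they differed from Ctrl by 0.10 and 0.02 (adjusted p = 0.747 and 0.936). Of the 7 markers, 3 were called higher in M (42.9%, against 12.2% of all genes) and 2 in T (28.6%, against 17.5%). None was called lower. Mean log2 levels of Csf1r, Cd68 and Itgam were 4.75, 5.50 and 6.57 in Ctrl and 4.57, 5.44 and 5.90 in M. The linear levels of the 7 were also summed, in units of the array's 75th percentile. That sum ranged from 169 to 217 in Ctrl, 126 to 179 in T and 154 to 219 in M. Of markers of other cells that carry Fc receptors, the B cell gene Ms4a1, the mast cell genes Fcer1a, Cpa3 and Ms4a2 and the NK cell gene Klrd1 were above background on no array, while the B cell genes Cd79b, Pax5, Blk, Fcer2a and Cr2, the NK cell genes Ncr1, Prf1 and Eomes and the mast cell gene Tpsb2 were above it on 9 of 9. The summed linear level of the 8 NK cell markers, in units of the array's 75th percentile, ranged from 7.03 to 26.4 in Ctrl, 5.31 to 8.03 in T and 4.62 to 6.03 in M, and that of the 8 mast cell markers from 0.1995 to 0.278, 0.355 to 0.375 and 0.152 to 0.213. Such sums, here and below, are set mainly by their brightest genes. In Ctrl the mean log2 level of Prf1 was 3.89, against -3.22 for Ncr1, -4.59 for Klre1, -5.04 for Eomes and -5.78 for Gzma. In T that of Tpsb2 was -1.70, against -5.20 for Cma1 and -7.16 for Kit, whose Ctrl means were -3.99 and -5.58. Of 10 neutrophil markers, 6 (Cxcr2, Elane, Mpo, Camp, S100a8 and S100a9) were above background on 9 of 9 arrays and Ngp on 8, while Ly6g was above it on 1 T array and Ltf and Retnlg on 1 array each. The summed level of the 10 ranged from 0.527 to 0.9997 in Ctrl, from 0.887 to 1.12 in T and from 2.70 to 2.75 in M, and 2 of the 7 tested were higher in M than in Ctrl, S100a8 by 4.97 ± 0.22 and S100a9 by 1.58 ± 0.28 (limma adjusted p = 2.90e-07 and 0.00355). Of 11 markers of carcinoma epithelium, 4 were above background on 9 of 9 arrays and Cdx2 on none, and their summed level ranged from 1.55 to 2.496 in Ctrl, 1.94 to 2.14 in T and 1.46 to 1.85 in M. In T, 3 of 8 tested were higher than in Ctrl, Krt19 by 3.63 ± 0.27, Elf3 by 1.46 ± 0.18 and Vil1 by 0.84 ± 0.28 (limma adjusted p = 1.12e-05, 0.000255 and 0.0339), and Epcam and Cldn4 were lower (-1.60 ± 0.29 and -1.35 ± 0.29, adjusted p = 0.00221 and 0.00526), and in M none of the 8 was called. The part of RNA from other cells in the results below was not tested. In these bulk samples, more cells that express a gene and more RNA per cell cannot be told apart.

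Fcgr2b, Fcgr3 and Fcgr4 are neighbours on mouse chromosome 1, and the letters around the transcription start of the receptor genes are shown because the receptors of that cluster moved together. On the RefSeq assembly GRCm38.p6 all 5 genes had a promoter entry (6 entries, with 2 for Fcgr3), each of 250 bases before and 50 bases after a start. The 150 bases before the start are printed 5′ to 3′ on the gene's strand for 4 of them. Capitals mark the letters CTTCCTCT, which are the reverse complement of the PU.1-type core AGAGGAAG, and the letters TTCNNNGAA of a STAT binding element, both searched on both strands.
Fcgr1, chr3:96293970-96294119, minus strand: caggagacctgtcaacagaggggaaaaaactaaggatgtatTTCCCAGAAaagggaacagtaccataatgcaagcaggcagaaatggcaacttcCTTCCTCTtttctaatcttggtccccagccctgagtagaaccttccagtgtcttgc
Fcgr3, chr1:171059395-171059544, minus strand: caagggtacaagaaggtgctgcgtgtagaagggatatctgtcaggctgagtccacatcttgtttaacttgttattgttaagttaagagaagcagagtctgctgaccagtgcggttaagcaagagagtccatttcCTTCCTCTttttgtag
Fcgr4, chr1:171018776-171018925, plus strand: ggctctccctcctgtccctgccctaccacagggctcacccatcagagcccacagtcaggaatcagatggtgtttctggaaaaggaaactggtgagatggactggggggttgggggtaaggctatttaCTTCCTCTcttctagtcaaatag
Fcgr2b, chr1:170976072-170976221, minus strand: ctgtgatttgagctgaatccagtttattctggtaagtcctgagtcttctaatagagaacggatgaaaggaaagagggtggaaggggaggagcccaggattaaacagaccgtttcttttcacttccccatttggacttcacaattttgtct
The PU.1-type core was present in the entries of Fcgr1, Fcgr3 and Fcgr4 and in 4.55% of all 32851 promoter entries. In the printed entries its nearest base lay 49, 9 and 16 bases before the start. In the other Fcgr3 entry it ran from base -7 to base 1, across the start. These exact letters were absent from the entries of Fcgr2b and Fcer1g. Other spellings of a PU.1 site were not searched, so whether those entries hold one was not tested. The STAT letters were present in Fcgr1 among the 5 genes, as TTCCCAGAA, and in 8.30% of all entries. The letters TGANTCA of an AP-1 site and CACGTG of an E-box, also searched on both strands, were in none of the 5 genes and in 7.81% and 7.15% of all entries. These matches describe the letters of these windows, and the letters were chosen after the windows had been read.

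The first question was which receptor genes differed between macrophages kept with carcinoma cells and macrophages kept alone. Fcgr2b, Fcgr3 and Fcgr4 were higher in T and in M than in Ctrl, by 3.1-fold to 7.07-fold, while Fcgr1 and the shared chain Fcer1g passed the test in no comparison. Thus 3 of 5 genes were called higher in T, where 17.5% of all genes tested were, and the same 3 of 5 in M, where 12.2% were. In M minus T, 0 of 5 were called by limma, where 25.5% of all genes were higher or lower. The arrays of those 3 genes did not overlap with Ctrl in either comparison, which held for 22.6% of all genes higher in T and 16.7% higher in M. T and M share the Ctrl arrays, so these counts are not independent of each other. A level below is log2 of the probe's signal minus the array's 75th percentile, so that 0 is the signal at that percentile, the 3 values of a group are given in the order of array numbers, and levels are compared between groups for a gene and not between genes.

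The inhibitory receptor Fcgr2b had levels of -0.04, -0.13 and 0.61 in Ctrl. In T its levels were 1.65, 1.86 and 1.83, and in M they were 2.36, 2.56 and 2.18. Every T and M array lay above every Ctrl array, and Ctrl3 was the highest of its group. Every M array also lay above every T array, which held for 28.6% of all genes. Fcgr2b rose 3.1-fold in T (log2 difference 1.63 ± 0.22, SE, n = 3 per group, limma adjusted p = 0.000439) and 4.66-fold in M (2.22 ± 0.22, adjusted p = 7.14e-05). The step from T to M was 0.59 ± 0.22 and missed the threshold (adjusted p = 0.0758), with a 95% interval of 0.10 to 1.07. That step passed it in 6 of 24 alternatives: with only T and M fitted (adjusted p = 0.0240), without Ctrl3 (0.0154), with the 75th percentile over detected probes (0.0393), with normexp (0.0495) and with either kind of array weights (0.0141 and 0.0150). Fcgr2b was spotted 10 times per array, and 8 to 10 of its spots were used, which varied with a coefficient of variation of 1.92% to 8.44%. Its probe lies on chromosome 1 of build mm9 from 172890988 to 172891047, on the minus strand.

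Fcgr3 encodes the low-affinity activating receptor CD16. Its levels were -0.16, -0.31 and 0.28 in Ctrl, 2.35, 2.34 and 2.26 in T, and 2.75, 3.22 and 2.31 in M. The Ctrl arrays were the lowest, the T arrays lay within 0.09 of each other, and M3 fell among the T arrays. Fcgr3 rose 5.21-fold in T (2.38 ± 0.25, limma adjusted p = 8.89e-05) and 7.07-fold in M (2.82 ± 0.25, adjusted p = 2.86e-05), and M and T did not differ beyond the spread (0.44 ± 0.25, adjusted p = 0.222). These were the largest differences of the 5 genes in both comparisons, at the 98.2 percentile of all genes in T and the 98.9 percentile in M.
The Fcgr3 probe lies on chromosome 1 of mm9 from 172984129 to 172984188, on the minus strand, and is shown because the outer parts of Fcgr2b and Fcgr3 are known to be nearly alike in sequence.
Fcgr3 probe: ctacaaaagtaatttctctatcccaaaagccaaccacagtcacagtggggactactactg
Whether this probe also takes up Fcgr2b transcripts was not tested, since no transcript sequences were used here.

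Fcgr4 encodes an activating receptor for IgG2a and IgG2b. Its levels were -0.22, -0.27 and 0.45 in Ctrl. They were 2.16, 1.85 and 1.88 in T and 1.87, 2.15 and 2.17 in M. All T and M arrays lay above all Ctrl arrays, and T and M overlapped. Fcgr4 rose 3.94-fold in T (1.98 ± 0.22, limma adjusted p = 0.000143) and 4.23-fold in M (2.08 ± 0.22, adjusted p = 0.000118), and M differed from T by 0.10, with a 95% interval of -0.39 to 0.59. Its probe lies on chromosome 1 of mm9 from 172959738 to 172959797, on the plus strand.

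Fcgr1, the gene of the high-affinity receptor CD64, lies on chromosome 3, with its probe from 96086839 to 96086898 on the minus strand of mm9. Its levels were 0.05, -0.07 and 0.08 in Ctrl, -0.19, 0.02 and -0.04 in T, and 0.46, 0.92 and 0.08 in M. The Ctrl and T arrays overlapped, and M2 stood highest while M3 lay at the level of Ctrl. The difference from Ctrl was -0.09 ± 0.21 in T (limma adjusted p = 0.756) and 0.47 ± 0.21 in M (adjusted p = 0.129), with a 95% interval in M of -0.01 to 0.94. All M arrays lay above all T arrays, which held for 28.6% of all genes, and the difference of 0.56 ± 0.21 missed the threshold (adjusted p = 0.0831). It passed without M3 (0.76, adjusted p = 0.0323) and with normexp (0.62, adjusted p = 0.0439), and was 0.99 without M1 and M3. With median scaling it was 0.43 (limma adjusted p = 0.256). The M difference from Ctrl passed with array weights (0.40, adjusted p = 0.0282) and with arrays scaled to their median (0.77, adjusted p = 0.0445), and under that scaling the direction of the T difference turned to 0.33.

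Fcer1g, whose product carries the ITAM for all the activating receptors, had levels of 5.33, 5.34 and 5.17 in Ctrl, 5.06, 4.71 and 4.74 in T, and 5.03, 5.36 and 5.46 in M. T2 and T3 were the lowest arrays, T1 lay between M1 and the Ctrl arrays, and M spanned the Ctrl range. The difference from Ctrl was -0.45 ± 0.18 in T and missed the threshold (limma adjusted p = 0.0673), and in M it was 0.00 with a 95% interval of -0.40 to 0.40 (adjusted p = 0.9996). The T difference passed in 4 of 25 alternatives: without Ctrl3 (-0.50, adjusted p = 0.0469), without T1 (-0.56, adjusted p = 0.0464) and with either kind of array weights (-0.59 and -0.58, adjusted p = 7.11e-05 and 0.00189). Both kinds of weights rested mostly on Ctrl2 among the Ctrl arrays. The T difference shrank to -0.024 with median scaling (limma adjusted p = 0.928). It was -0.19 both with quantile normalization and with normexp (limma adjusted p = 0.342 and 0.426). M minus T was 0.45 ± 0.18 (adjusted p = 0.0969), which passed with both kinds of array weights (adjusted p = 0.00595 and 0.00610). With median scaling M minus T was 0.32 and with normexp 0.18 (limma adjusted p = 0.286 and 0.502). The probe lies on chromosome 1 of mm9 from 173159794 to 173159853, on the minus strand. In order of level, Ctrl was lowest and M highest for Fcgr2b, Fcgr3 and Fcgr4, and T was lowest for Fcgr1 and Fcer1g, but neighbouring groups in that order differed past the threshold only at the step from Ctrl to T in Fcgr2b, Fcgr3 and Fcgr4.

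**Figure D1:**
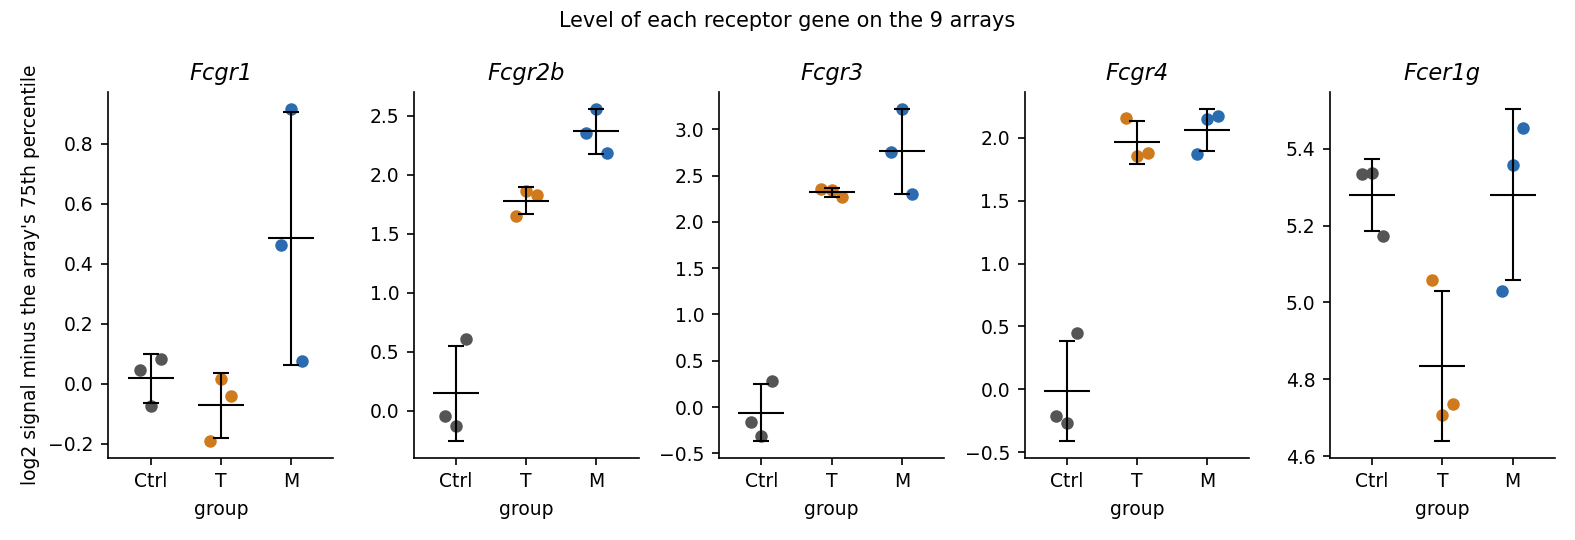
Levels of the 5 genes on each array, as log2 signal minus the array's 75th percentile, in groups Ctrl, T and M; points are arrays, bars are the mean and SD of 3 arrays, and each panel has its own vertical scale. Fcgr2b, Fcgr3 and Fcgr4 show no overlap of Ctrl with T or M, and Fcgr1 and Fcer1g span less than 1.2 log2 units over all arrays.

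**Figure D2:**
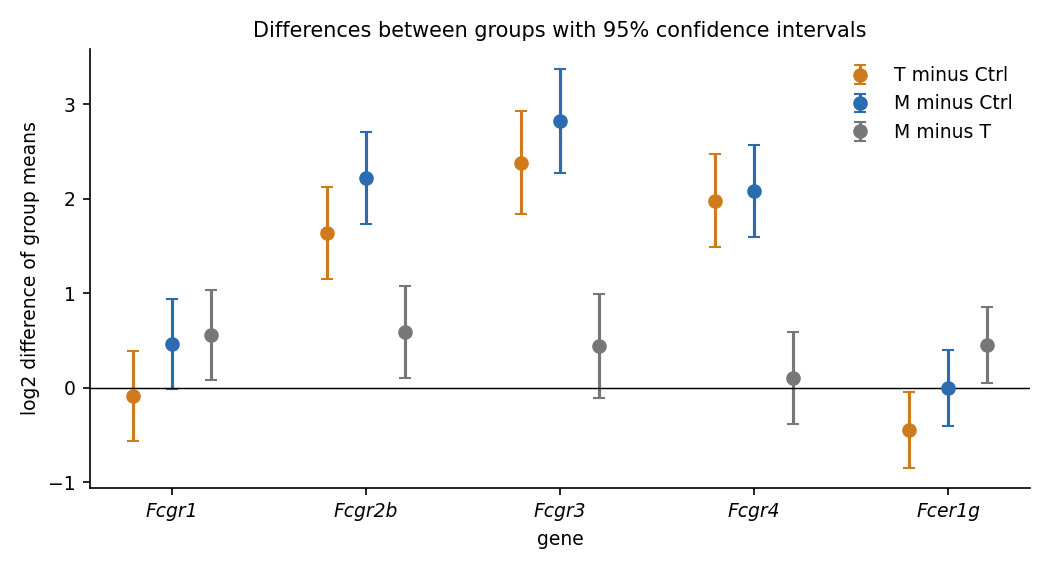
Differences between group means on the log2 scale for the 5 genes, with 95% confidence intervals of the limma fit to 9 arrays (3 per group). The intervals of T minus Ctrl and M minus Ctrl lie above 1 for Fcgr2b, Fcgr3 and Fcgr4, and those of Fcgr1 include 0.

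Over all genes tested, the median difference was -0.14 in T minus Ctrl, -0.09 in M minus Ctrl and 0.11 in M minus T, and scaling arrays to their median in place of the 75th percentile moved the first 2 medians to 0.28 and 0.21. The rises of Fcgr2b, Fcgr3 and Fcgr4 exceeded these shifts under both scalings. Across the 9 arrays, Fcgr2b and Fcgr3 correlated at 0.985, Fcgr3 and Fcgr4 at 0.971 and Fcgr2b and Fcgr4 at 0.961, Fcgr1 correlated with these 3 at 0.30 to 0.52 and Fcer1g at -0.34 to -0.27. These values describe arrays of 3 groups that share their scaling and their slides. The genes most alike in pattern, by Pearson r over the 9 arrays, were Tnfsf13b (0.995), Fam161a and Pld2 for Fcgr2b, and Tmem106a (0.994), Csta2 and Ecm1 for Fcgr3. For Fcgr4 they were Cspg5 (0.997), Ccrl2 and Mocos, for Fcgr1 Ube2l6 (0.942), Tmem9 and Lgals9, and for Fcer1g Bcl2 (0.985), Nme1 and 4933406B15Rik.

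The second question was how the activating side stood against the inhibitory Fcgr2b, which was asked within each array, where scaling cancels. Relative to Fcgr2b, Fcgr1 and Fcer1g were lower in T and in M than in Ctrl, Fcgr3 was higher in both, and Fcgr4 passed the test in neither. A shift of such a difference between groups shows that 2 genes changed unequally, and its value on an array has no meaning of its own. Since Fcgr2b itself rose, 89.5% of all genes were lower relative to it in T and 96.2% in M, so that the falls of Fcgr1 and Fcer1g match what most genes did, whereas 2.07% of genes were higher in T and 1.12% in M. The Fcgr2b levels themselves did not overlap between Ctrl and T or M. The share of all genes whose arrays did not overlap in this measure was not counted. Separations of arrays given below are therefore not read as particular to these genes.

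Fcgr3 minus Fcgr2b was -0.12, -0.18 and -0.33 in Ctrl, 0.70, 0.48 and 0.44 in T and 0.40, 0.66 and 0.12 in M. Every T and M array lay above every Ctrl array. The shift was 0.75 ± 0.20 in T (1.68-fold, limma adjusted p = 0.00478) and 0.60 ± 0.20 in M (1.52-fold, adjusted p = 0.0137). In the exact permutation test over arrays, two-sided, both gave p = 0.1, the smallest that 3 against 3 arrays allow, and 0.15 when adjusted over the 12 tests of this kind. The M shift was 0.46 with adjusted p = 0.0774 after normexp background correction and 0.47 with adjusted p = 0.0530 without M2. What the likeness of the Fcgr2b and Fcgr3 sequences adds to this ratio was not tested.

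Fcgr4 minus Fcgr2b lay at -0.17, -0.14 and -0.16 on the Ctrl arrays, at 0.51, -0.01 and 0.05 in T and at -0.48, -0.41 and -0.01 in M. The T arrays were above the Ctrl arrays and the M arrays spread on both sides of them. The shift was 0.34 ± 0.21 in T (limma adjusted p = 0.143, 95% interval -0.13 to 0.82) and -0.14 ± 0.21 in M (adjusted p = 0.521, 95% interval -0.61 to 0.33). M minus T was -0.49 ± 0.21 (adjusted p = 0.108).

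Fcgr1 minus Fcgr2b fell from 0.09, 0.06 and -0.53 in Ctrl to -1.84, -1.84 and -1.87 in T and -1.89, -1.64 and -2.11 in M. The arrays of Ctrl did not overlap with those of T or M, and Ctrl3 was the lowest Ctrl array. The shift was -1.72 ± 0.22 in T (limma adjusted p = 7.72e-05) and -1.75 ± 0.22 in M (adjusted p = 3.61e-05). Fcer1g minus Fcgr2b was 5.38, 5.47 and 4.56 in Ctrl, 3.41, 2.85 and 2.91 in T and 2.67, 2.80 and 3.27 in M, a shift of -2.08 ± 0.29 in T (adjusted p = 0.000126) and -2.22 ± 0.29 in M (adjusted p = 4.98e-05). None of the 4 genes shifted between T and M relative to Fcgr2b past the threshold in limma, where 30.5% of all genes did; at an unadjusted p under 0.05 it was 1, Fcgr4, and the exact permutation test gave p = 0.1 or more.

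**Figure D3:**
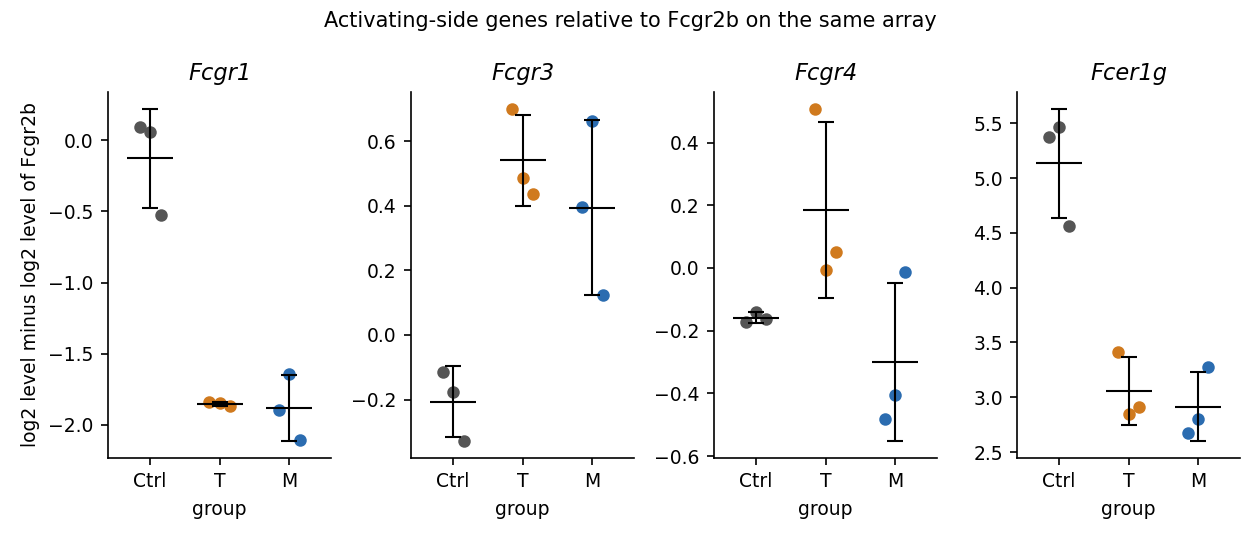
Log2 level of Fcgr1, Fcgr3, Fcgr4 and Fcer1g minus that of Fcgr2b on the same array, in groups Ctrl, T and M; points are arrays and bars the mean and SD of 3 arrays. The zero point has no meaning, since signals of different probes are not comparable. Fcgr3 is higher on all T and M arrays than on any Ctrl array, and Fcgr1 and Fcer1g are lower on all T and M arrays than on any Ctrl array.

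Other genes of the system were described from lists, whose counts are to be read against all genes tested, of which 17.5% were higher and 27.3% lower in T and 12.2% higher and 11.1% lower in M. Among 9 tested Fc receptors of other kinds, 3 were higher and 3 lower in T (33.3% each), and 2 were higher and 1 lower in M (22.2% and 11.1%), with medians of -0.27 and -0.29. Trim21, the cytosolic antibody receptor, rose 4.11-fold in T (2.04 ± 0.30, limma adjusted p = 0.000740) and Fcrl1, a receptor-like gene known from B cells, rose 4.14-fold in M (2.05 ± 0.21, adjusted p = 8.47e-05). The IgA and IgM receptor gene Fcamr fell by 1.79 ± 0.32 in T (adjusted p = 0.00215), with 2 of 3 T arrays above background, and Fcrlb fell by 0.998 ± 0.25 (adjusted p = 0.0108).

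Of 23 tested genes of the activating pathway, 3 were higher and 5 lower in T (13.0% and 21.7%, against 17.5% and 27.3% of all genes), and 5 were higher and none lower in M (21.7% higher, against 12.2%), with medians of -0.14 and 0.13. Fgr, a Src-family kinase, rose 8.60-fold in M (3.11 ± 0.16, limma adjusted p = 6.70e-07), and it differed from Ctrl by 0.02 in T (adjusted p = 0.935). Vav3, a guanine nucleotide exchange factor, rose 2.55-fold in T (1.35 ± 0.39, adjusted p = 0.0186). In T the kinase gene Src fell by 1.08 ± 0.21 (adjusted p = 0.00312) and the adaptor gene Gab2 fell by 1.07 ± 0.20 (adjusted p = 0.00291). Syk, the kinase bound by the ITAM and named for that role outside the naming rule, differed from Ctrl by -0.83 ± 0.44 in T and -0.74 ± 0.44 in M (adjusted p = 0.149 and 0.228), with Ctrl arrays from 0.78 to 3.01.

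Of 13 tested genes of the inhibitory pathway, 3 were higher and 1 lower in T (23.1% and 7.69%, against 17.5% and 27.3% of all genes), and 1 was higher in M (7.69%, against 12.2%), with medians of 0.28 and 0.02. Cblb, a ubiquitin ligase, rose 2.22-fold in T (1.15 ± 0.25, limma adjusted p = 0.00497), the adaptor gene Dok1 fell by 0.65 ± 0.16 in T (adjusted p = 0.00820), and the phosphatase gene Ptpn12 rose 1.92-fold in M (0.94 ± 0.20, adjusted p = 0.00924). Inpp5d, which encodes the SHIP1 bound by the ITIM and was also named for its role, was higher in T by 0.50 ± 0.16 (adjusted p = 0.0272) and differed from Ctrl in M by -0.32 ± 0.16 (adjusted p = 0.158). It was lower in M than in T by 0.81 (-0.81 ± 0.16, adjusted p = 0.00435).

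Receptors with the same 2 motifs were listed next. Among 16 tested adaptors and receptors of the ITAM kind, 6 were higher and 2 lower in T (37.5% and 12.5%, against 17.5% and 27.3% of all genes) and 7 higher and 1 lower in M (43.8% and 6.25%, against 12.2% and 11.1%), with medians of 0.46 and 0.23. Trem3, a receptor of the TREM family, rose 87.5-fold in M (6.45 ± 0.30, limma adjusted p = 4.24e-07), and Pira2, an activating paired receptor that signals through Fcer1g, rose 20.4-fold (4.35 ± 0.18, adjusted p = 2.24e-07). Sirpb1a fell by 1.31 ± 0.32 in T (adjusted p = 0.00955) and Cd300ld fell by 0.72 ± 0.21 in M (adjusted p = 0.0338). Among 14 tested ITIM receptors, 7 were higher and 1 lower in T (50% and 7.14%) and 6 higher and none lower in M (42.9% higher), with medians of 1.03 and 0.52. Pirb, the inhibitory partner of Pira2, rose 27.7-fold in M (4.79 ± 0.22, adjusted p = 3.84e-07), and Lilrb4a rose 12.2-fold in T (3.61 ± 0.19, adjusted p = 1.59e-06). Pira2 and Pirb belong to a family of closely alike genes, and which transcripts their probes take up was not tested.

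**Figure D4:**
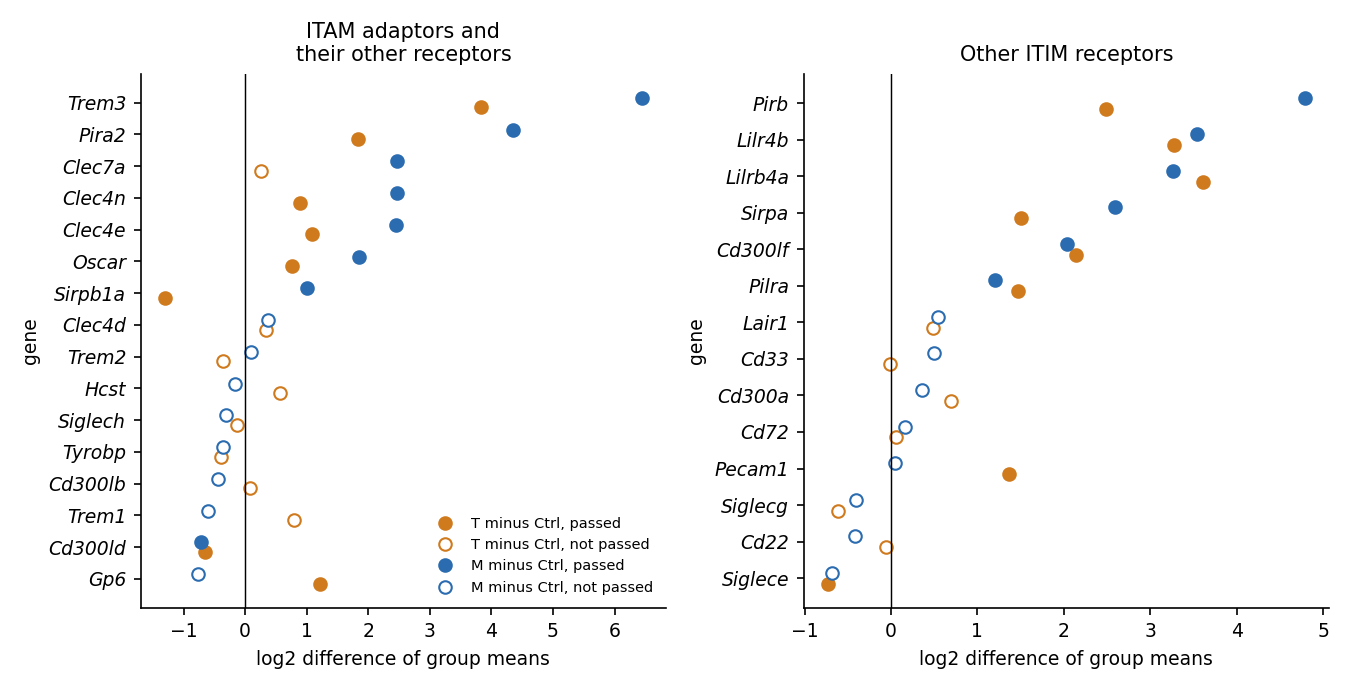
Log2 difference of T minus Ctrl and M minus Ctrl for the tested ITAM adaptors and receptors (16 genes) and ITIM receptors (14 genes); filled points passed limma's adjusted p of 0.05 and open points did not. Trem3, Pira2 and Pirb lie farthest to the right in M, and Lilrb4a in T among the ITIM receptors.

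Of 22 tested phagocytic effectors and oxidase genes, 5 were higher and 3 lower in T (22.7% and 13.6%, against 17.5% and 27.3% of all genes) and 6 higher and 1 lower in M (27.3% and 4.55%, against 12.2% and 11.1%), with medians of -0.02 and -0.03. The phospholipase genes Pld2 and Pld1 rose 10.01-fold (3.32 ± 0.31, limma adjusted p = 4.75e-05) and 6.29-fold (2.65 ± 0.27, adjusted p = 9.74e-05) in M. Cybb, the catalytic subunit of the phagocyte oxidase, fell by 1.27 ± 0.19 in M (adjusted p = 0.00129), and the actin regulator gene Wasf2 fell by 0.76 ± 0.21 in T (adjusted p = 0.0161). Of 20 tested regulators of Fc receptor expression, 7 were higher and 1 lower in T (35% and 5%) and 5 higher and none lower in M (25% higher), with medians of 0.40 and 0.56. The transcription factor gene Tfec was at least 34.8-fold higher in M (adjusted p = 1.80e-07) and was not well above background on any Ctrl or T array. The bound sets the mean of M against, per array, the higher of the dimmest signal well above background and the probe's own. C5ar1, the receptor of the complement fragment C5a, rose 8.17-fold in M (3.03 ± 0.24, adjusted p = 1.59e-05) and was above background on 2 of 3 Ctrl arrays. Csf2rb, a chain of the GM-CSF receptor, fell by 0.86 ± 0.26 in T (adjusted p = 0.0218). Spi1, which encodes PU.1 and was named for the promoter letters above, differed from Ctrl by 0.16 in T (adjusted p = 0.580) and 0.65 in M (adjusted p = 0.0543).

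The cluster was also set beside its neighbours on chromosome 1. Of 22 tested neighbours, 4 were higher and 6 lower in T (18.2% and 27.3%, close to the 17.5% and 27.3% of all genes) and 3 higher and 1 lower in M (13.6% and 4.55%, against 12.2% and 11.1%), with medians of 0.00 and -0.09. Nectin4 was at least 2.35-fold higher in T (limma adjusted p = 2.58e-05) and above background on no Ctrl or M array, so its call in M has no fold. Tomm40l rose 2.21-fold in M (1.14 ± 0.31, adjusted p = 0.0271) and Nr1i3 fell by 1.29 ± 0.23 in T (adjusted p = 0.00207). Fcrlb, next to Fcgr2b among the tested genes, fell in T as given above, and Cfap126, next to Fcgr3 and named for its place, differed from Ctrl by -0.99 in T (adjusted p = 0.00232) and -0.58 in M (adjusted p = 0.0442).

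**Figure D5:**
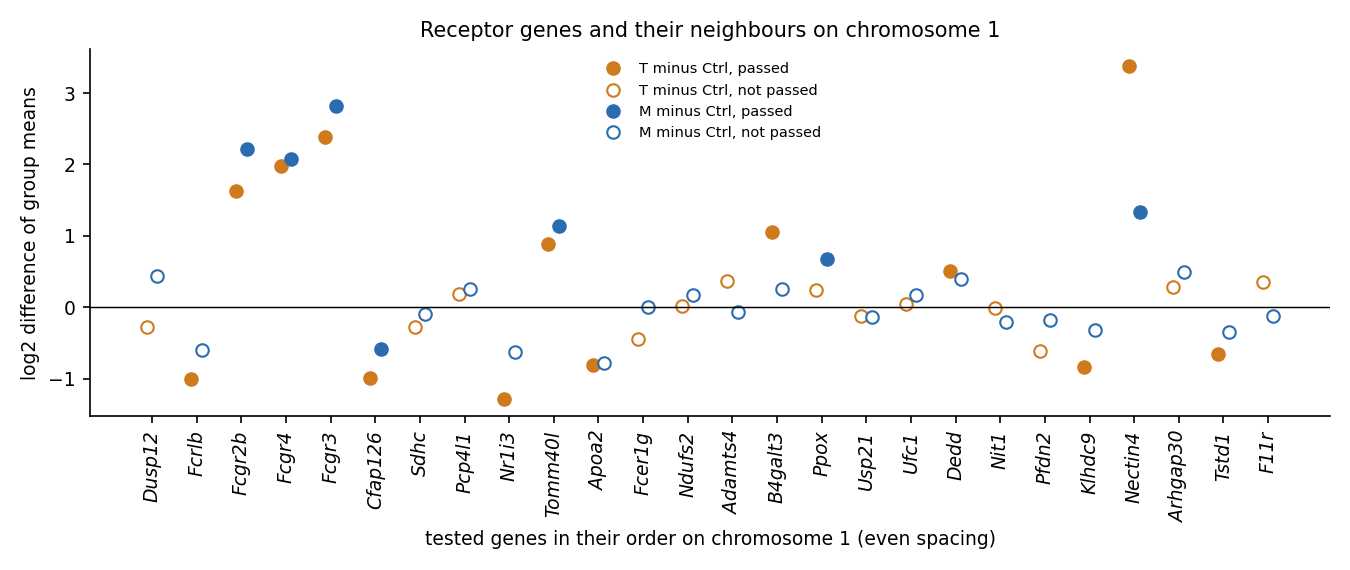
Log2 difference of T minus Ctrl and M minus Ctrl for Fcgr2b, Fcgr4, Fcgr3, Fcer1g and 22 tested neighbours in their order on chromosome 1, evenly spaced; filled points passed limma's adjusted p of 0.05. Fcgr2b, Fcgr4 and Fcgr3 stand together above 1.6 in both comparisons, and the genes on either side of them, Fcrlb and Cfap126, lie below 0.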

How the data were processed

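Per the submitters' processing notes, spots of the 1-colour arrays were extracted by the authors using Agilent Feature Extraction 10.7.3.1. The deposited scanner files hold a background-subtracted processed signal intensity per spot, per the file headers. A value table that the authors deposited beside them is partly on a log2 scale and partly linear intensity; 8 columns equalled a scanner file within 0.001 (log2) at 99.2% to 99.6% of probes, with M1 and M2 exchanged, and the T2 column equalled none, so it served as an alternative without T2. Control and outlier spots were left out and spots of a probe averaged. Log2 signal minus the array's 75th percentile was fitted with limma 3.58.1 in R 4.3.3 (lmFit, eBayes, all 9 arrays, no covariate). Probes well above background on all 3 arrays of a group were tested, the brightest probe standing for its gene, with Benjamini-Hochberg adjustment over 18382 genes at 0.05. The steps were tested on simulated data. Named list genes are the 2 largest called rises and falls per list whose arrays do not overlap; members and lists were chosen with earlier results of these data known. No label says whether arrays of a group are separate cultures, so p-values may speak of technical spread alone. The number of arrays limits the precision. Deviations of same-numbered arrays correlated at 0.12 to 0.55 in all 3 pairs of Ctrl and T, which were read as paired on the evidence of the values alone. Differently numbered arrays of these groups correlated at -0.45 to 0.19. T2 was closer to Ctrl3 (0.19) than to Ctrl2 (0.12), so the values do not settle this pairing. The main fit left this pairing out, and a replicate block was fitted among the alternatives. In the 6 pairs with M the deviations correlated at -0.27 to 0.026. These depend on the numbering of M1 and M2, which the value table exchanges. Under that exchange, Ctrl1 and T1 correlated with M2 at 0.35 and 0.32, and Ctrl2 and T2 with M1 at 0.037 and 0.060. Ctrl3 and T3 correlated with M3 at 0.016 and 0.026. Whether M was paired was not settled. Alternatives covered scaling, background correction, filters, probe choice, variance model, array weights and arrays left out. Some results are not reported here.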

Additional observations from a re-analysis of the deposited data

How the results depend on the processing

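Over 25 alternatives in T minus Ctrl and 24 in M minus Ctrl, the rises of Fcgr2b, Fcgr3 and Fcgr4 passed the threshold in each, at 1.495 to 2.06, 2.26 to 2.80 and 1.85 to 2.40 in T minus Ctrl and 2.08 to 2.52, 2.59 to 3.28 and 1.95 to 2.38 in M minus Ctrl (log2). Called genes numbered 3 to 4 of 5 in T minus Ctrl and in M minus Ctrl. In M minus T, where limma called 0 (3 at an unadjusted p under 0.05), the count was 1 with the 75th percentile taken over detected probes, with only the compared groups or without M1 and M3 together, 2 with normexp or with array weights, and 0 to 1 when 1 array was left out. Relative to Fcgr2b the counts were 3, 2 to 3 and 0. Array weights stopped before convergence. Gene-by-gene weights, added after seeing the data for that reason, also gave 2 in M minus T. The array weights of Ctrl1, Ctrl2 and Ctrl3 were 0.355, 18.7 and 0.132, and the gene-by-gene ones 0.534, 2.88 and 0.172. Both kinds thus set T or M mostly against Ctrl2. Direction turned in values that passed no test: Fcgr1 in T minus Ctrl was 0.33 with median scaling and 0.042 and 0.025 with the array weights; Fcgr4 in M minus T was -0.021 with median scaling; Fcer1g in M minus Ctrl was -0.016 with detected probes, -0.0053 with normexp, -0.027 and -0.019 with the weights, and -0.087 to 0.126 without 1 array (-0.087 without M3, -0.054 without Ctrl3, -0.039 without M2). In M minus T relative to Fcgr2b, Fcer1g was 0.092 and 0.098 with the weights and -0.319 to 0.037 without 1 array (0.037 without T1), Fcgr1 was -0.150 to 0.083 without 1 array (0.083 without M3) and 0.21 without M1 and M3, and Fcgr3 was 0.12 without both. The causes were not tested. With the replicate block, counts were 3, 3 and 0 and no call of the 5 genes or of their ratios changed, nor did one with the block in Ctrl and T alone (3 and 3 in T minus Ctrl), which was added after seeing the data. Calls over all genes numbered 14378 in T minus Ctrl with array weights and 12384 with gene-by-gene weights, against 8248. The share of calls that were higher moved from 39.1% to 65.9% with median scaling and 52.5% with quantile normalization in T minus Ctrl, from 52.2% to 74.4% and 66.2% in M minus Ctrl, and from 57.6% to 44.9% with median scaling in M minus T. A slide block was not run: slide 2 held T alone, and the fit of M and Ctrl alone lies within slide 1.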
